A study of Mus musculus with 6 samples.

Results

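Potassium channels return the membrane of a heart muscle cell to its resting voltage after each beat. Each channel is built from pore subunits that conduct the ion, and many pores also carry accessory subunits that set how many channels reach the membrane or how fast they open and close. Some subunits of the voltage-gated family carry no current of their own and act only as modifiers inside a channel formed with another pore subunit. In the mouse ventricle, repolarization rests mainly on the transient outward current and on delayed rectifier currents, with inward rectifiers holding the resting voltage and ATP-sensitive channels tying it to the energy state of the cell.

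The genes described here are 9 such subunits. They are the voltage-gated pores Kcnd2, Kcnd3, Kcna5 and Kcnq1, the modifiers Kcng4 and Kcnv2, the accessory subunit Kcnip2, and the inward rectifier pores Kcnj2 and Kcnj11. All probe sets annotated to 1 of these symbols and to no other gene were taken, which gave 18 probe sets out of 34945 with a single symbol, and 9 genes out of 18193. The 9 genes were chosen by their known roles with the differences between these same Glut1-TG and WT arrays in view, Kcng4 having been seen as a large rise, so their differences between the groups are given as a description and carry no test.

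RNA came from the left ventricles of 3 Glut1-TG mice and 3 WT mice, all FVB males of 11 to 12 weeks, and was hybridised to 1 Affymetrix expression array per ventricle. Glut1-TG mice carry human Glut1, a glucose transporter that works without insulin, under the alpha-myosin heavy chain promoter, which is active in heart muscle cells. The sample labels call the controls wild type, while the design text speaks of cardiac-specific transgenic mice for both groups and names no transgene in the controls. The labels do not say whether the 3 samples of a group came from separate litters or preparation days, so the spread given below is that between these arrays. The tissue was whole ventricle, and in bulk RNA fewer cells of a type and less RNA per cell cannot be told apart.

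The signal is a linear intensity scaled per array to a trimmed mean of 500. Median signals over all probe sets were 181.3 to 213.3 in the Glut1-TG arrays and 170.9 to 187.6 in the WT arrays, and pairwise correlations of log2 signal lay between 0.927 and 0.966. The number of arrays limits the precision. Differences are log2 signal, Glut1-TG minus WT, with the standard error (SE) from limma, a linear model fitted to all 13178 genes whose probe set lay above the lowest 40% of mean signals, a limit near a signal of 115. Genes are counted as called at a limma p under 0.05 after Benjamini-Hochberg adjustment over all of them. Levels of different probe sets were not set against each other. The labels were checked on Slc2a1, the mouse gene for Glut1. Its brightest probe set had 851.1, 753.1 and 757.2 in Glut1-TG arrays, against 526.7, 408.6 and 532.9 in WT arrays (log2 difference 0.69, limma adjusted p = 0.108). Its other probe sets gave -1.19 and -2.30, lower in Glut1-TG arrays without overlap, with limma adjusted p = 0.174 and 0.0226 in a fit over all probe sets, where the brightest had 0.135. The only Slc2a1 probe set past the threshold, that at -2.30, thus ran lower in Glut1-TG hearts. Its geometric mean signal over all arrays was 187, so its Glut1-TG mean lay under the filter and it passed through the WT arrays. The transgene is human, and whether mouse probes read it was not tested.

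The zinc finger transcription factor Klf15 is known to drive Kcnip2 in the daily rhythm of repolarization in mice, and its signal was lower in Glut1-TG hearts. The promoters of Kcng4, the member with the largest difference here, and of Kcnip2 are therefore printed, each from 250 bases before to 50 bases after the gene's start, 5′ to 3′ along the gene. Capitals mark CACCC, the core of the letters that Krüppel-like factors bind, or its reverse complement GGGTG. The Kcng4 window lies at chr8:119635631-119635930 and the Kcnip2 window at chr19:45816014-45816313, both on the minus strand of GRCm38.p6, and both sequences are from RefSeq.
Kcng4: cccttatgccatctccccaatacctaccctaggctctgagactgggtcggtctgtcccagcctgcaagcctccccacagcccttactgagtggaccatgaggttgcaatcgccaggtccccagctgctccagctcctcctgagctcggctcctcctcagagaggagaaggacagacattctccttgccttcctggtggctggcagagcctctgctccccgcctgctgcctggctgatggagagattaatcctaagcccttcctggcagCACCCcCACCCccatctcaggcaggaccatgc
Kcnip2: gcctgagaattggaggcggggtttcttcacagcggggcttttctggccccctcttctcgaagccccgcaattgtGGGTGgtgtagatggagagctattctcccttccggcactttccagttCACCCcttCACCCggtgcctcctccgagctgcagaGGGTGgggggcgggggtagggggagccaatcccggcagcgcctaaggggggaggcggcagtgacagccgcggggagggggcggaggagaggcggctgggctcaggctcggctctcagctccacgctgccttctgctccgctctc
The Kcng4 window held the letters 2 times, as a tandem pair near the gene's start, and the Kcnip2 window held them 4 times, 2 on each strand. Windows of that table were found for 6 of the 9 genes, and 6 of 6 held the letters at least once, with 3 matches for Kcnd3, 2 for Kcna5 and 1 each for Kcnd2 and Kcnj2. Of 32851 windows in the table, 57.5% held at least 1 match, 25.7% at least 2 and 3.1% at least 4. A match describes the letters in the window and is not a measured binding site.

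Of the 9 genes, 8 had a probe set past the filter, and of the 18 probe sets 12 did. Kcng4 was higher and Kcnv2 lower in each Glut1-TG array than in any WT array, and for the other 6 measured genes the groups overlapped. Limma called 1 member higher, Kcng4 (0 without WT replicate 1), and 0 lower, where 0.258% of all genes tested were called higher and 0.599% lower. Without the adjustment, 1 was higher and 1 lower (Kcnv2) at a p under 0.05, beside 5.47% and 5.81% of all genes. Under the thresholds of the study, a minimum fold change with an unadjusted p under 0.05, 1 was higher and 1 lower, beside 3.21% and 2.65% of all genes. Groups that did not overlap were found for 8.67% of all genes on the higher side and 8.77% on the lower side. Since the list was drawn up on this contrast, nothing is read from these counts. The median difference over the 8 genes was -0.15, beside 0.02 over all genes tested, with 3 above 0 and 5 below.

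**Figure D1:**
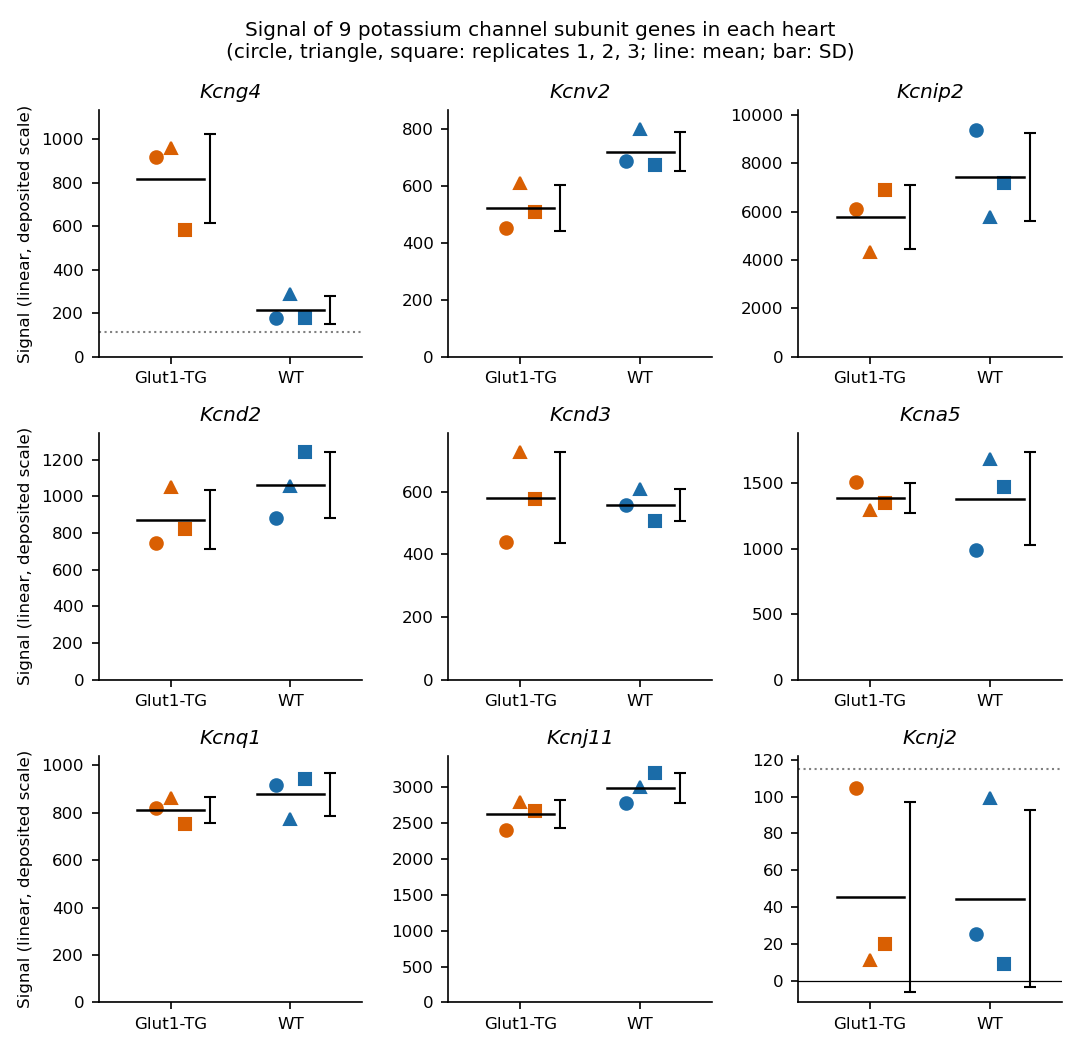
Linear signal (vertical axis, from 0) of the probe set used for each of the 9 genes in each Glut1-TG and WT heart. Circles, triangles and squares are replicates 1, 2 and 3, horizontal lines are means, bars are SD (n = 3), and the dotted line in the Kcng4 and Kcnj2 panels is the filter at a signal of 115. Kcng4 lies between 582.2 and 959.2 in Glut1-TG hearts and at most at 286.4 in WT hearts, Kcnv2 is lower in Glut1-TG hearts without overlap, and Kcnj2 lies under the filter in each heart.

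The modifiers stood apart from each other. Kcng4 encodes Kv6.4, which forms no working channel by itself and shifts the voltage dependence of the channels it joins. Its signal was 916.6, 959.2 and 582.2 in the Glut1-TG arrays, against 178.1, 286.4 and 177.7 in the WT arrays. Glut1-TG replicates 1 and 2 were close to each other and replicate 3 was the lowest of its group, yet above the highest WT array, which was replicate 2. The means were 819 ± 206 in Glut1-TG hearts and 214 ± 62.6 in WT hearts (SD, n = 3 each), a log2 difference of 1.94 (SE 0.27) or 3.84-fold. By size of the difference Kcng4 stood at rank 9 from the top among the 13178 genes tested, and all 3 WT signals lay above the filter. A single probe set carried the gene, so no other probe set of the gene could be set beside it. Its difference lay between 1.71 and 2.17 in 14 other settings and was 1.83 without WT replicate 1. Some of these settings, such as a change of filter, cannot change the difference of a gene.

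Kcnv2 encodes Kv8.2, the other modifier in the list, known in people for a cone dystrophy of the retina. Its signal was 451.1, 611.2 and 507.9 in the Glut1-TG arrays, against 688.6, 799.5 and 674.9 in the WT arrays. Replicate 2 was the highest array in both groups, and the highest Glut1-TG array stayed under the lowest WT array. Kcnv2 averaged 523 ± 81.2 in Glut1-TG hearts and 721 ± 68.3 in WT hearts (SD, n = 3 each), with a log2 difference of -0.47 (SE 0.16), so that the WT level was 1.38-fold the Glut1-TG level. The gap between the nearest arrays of the groups was smaller than the SD of either group, and Kcnv2 was not called after adjustment. Its difference lay between -0.59 and -0.28 in 14 other settings.

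Kcnip2 encodes KChIP2, the calcium-binding subunit that brings Kv4 pores to the membrane and on which the fast transient outward current of the ventricle depends. Its signal was 6110, 4325 and 6897 in the Glut1-TG arrays, against 9362, 5769 and 7173 in the WT arrays. The groups overlapped, because Glut1-TG replicates 1 and 3 exceeded WT replicate 2. The means were 5777 ± 1318 in Glut1-TG hearts and 7435 ± 1811 in WT hearts (SD, n = 3 each), a log2 difference of -0.36 (SE 0.20). The second Kcnip2 probe set gave 2304, 1859 and 2998 in Glut1-TG arrays, against 3685, 2511 and 2970 in WT arrays, and a log2 difference of -0.37 (SE 0.18). The arrays stood in the same order on both probe sets, replicate 3 over 1 over 2 in Glut1-TG hearts and replicate 1 over 3 over 2 in WT hearts. Both probe sets thus read the same order of arrays. They share each array and its RNA, so variation between hearts and between arrays cannot be told apart. The third and dimmest probe set gave 222.0, 183.6 and 270.1 in Glut1-TG arrays, against 207.4, 281.7 and 148.9 in WT arrays, with a difference of 0.11 (SE 0.32), and it kept the order in Glut1-TG hearts but not in WT hearts.

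Kcnip2 also varied more within its groups than most genes of like signal. Its within-group SD was 0.35 on the log2 scale, and 98.1% of the 1318 genes in the same one of 10 equal bins of mean signal had a smaller one. The corresponding share was 89.9% for Kcna5 (SD 0.29), 86.1% for Kcng4 (SD 0.40), 77.6% for Kcnd2 (SD 0.25) and 76.4% for Kcnd3 (SD 0.28). It was 40.1% for Kcnv2 (SD 0.18), 34% for Kcnj11 (SD 0.11) and 26.9% for Kcnq1 (SD 0.13), so those 3 genes were measured more evenly than most of their neighbours. With WT replicate 1 left out the Kcnip2 difference was -0.18, without Glut1-TG replicate 2 it was -0.17, and without WT replicate 2 it was -0.53. The Kcnip2 difference was negative in all 14 other settings, and its size rested on single arrays. Those of the 14 that alter only the filter or the error of the fit cannot change it and left it at -0.36.

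**Figure D2:**
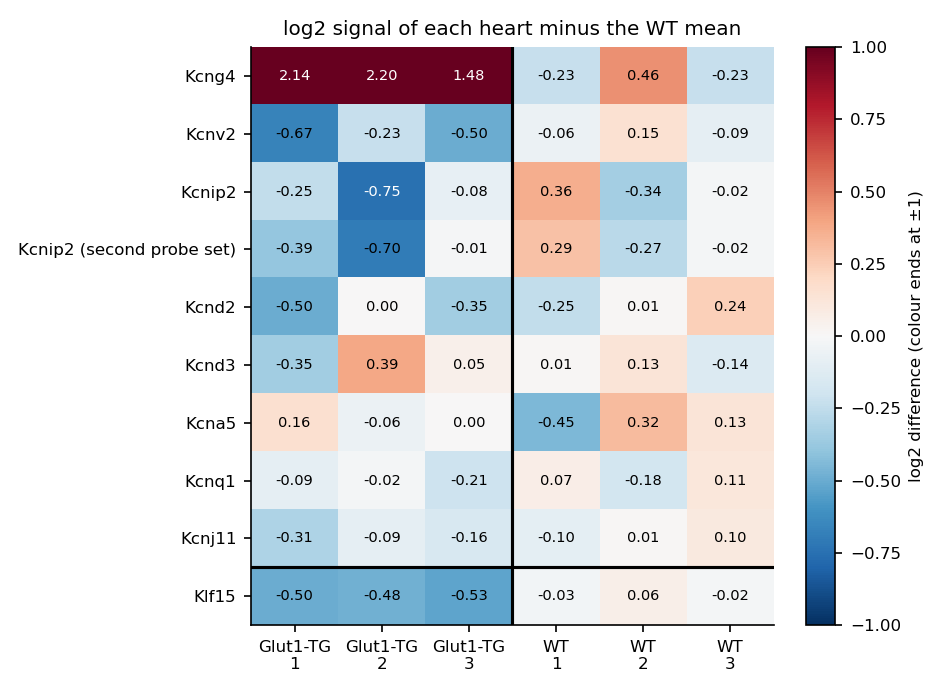
Each cell is the log2 signal of a heart (columns, Glut1-TG left of WT) minus the mean of the 3 WT hearts, for the 8 measured genes, the second Kcnip2 probe set and, under the black line, Klf15; the colours end at 1 on either side of 0. Kcng4 is 1.48 to 2.20 above the WT mean in Glut1-TG hearts, Klf15 is 0.48 to 0.53 under it, and Kcnip2 spans -0.75 to -0.08 in Glut1-TG hearts and -0.34 to 0.36 in WT hearts on the probe set used.

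The Kv4 pores that KChIP2 joins were measured with overlap between the groups. Kcnd2 encodes Kv4.2, the main pore of the fast transient outward current in mouse ventricle. Its signal was 744.7, 1053 and 823.8 in the Glut1-TG arrays, against 882.0, 1056 and 1243 in the WT arrays. Glut1-TG replicates 1 and 3 lay under all WT arrays, while replicate 2 was level with WT replicate 2. The difference was -0.28 (SE 0.17). The other Kcnd2 probe set past the filter gave 225.6, 486.8 and 410.4 in Glut1-TG arrays, against 468.0, 394.4 and 468.3 in WT arrays, and a difference of -0.31 (SE 0.28). Both probe sets had Glut1-TG replicate 1 as their lowest array. The remaining 2 probe sets of the gene lay under the filter, with differences of -0.68 and 1.33 that disagree in sign, and with all 4 averaged the Kcnd2 difference was 0.01.

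Kcnd3 encodes Kv4.3, a pore of the same current. Its signal was 437.8, 727.7 and 577.4 in the Glut1-TG arrays, against 558.1, 609.4 and 505.7 in the WT arrays. The lowest and the highest of the 6 arrays were both Glut1-TG, so the WT range lay inside the Glut1-TG range. The difference was 0.03 (SE 0.20), and it turned to -0.02 after quantile normalization. Another 3 Kcnd3 probe sets lay under the filter with differences of 1.10, -0.23 and 1.44, and averaging all 4 gave 0.59.

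Kcna5 encodes Kv1.5, the pore of an ultrarapid delayed rectifier current. Its signal was 1513, 1292 and 1352 in the Glut1-TG arrays, against 991.4, 1685 and 1473 in the WT arrays. The Glut1-TG arrays all lay inside the WT range, and the WT group held both the lowest and the highest array. The means were 1385 ± 114 in Glut1-TG hearts and 1383 ± 355 in WT hearts (SD, n = 3 each), a log2 difference of 0.03 (SE 0.18). The difference lay between -0.19 and 0.22 in 14 other settings, on both sides of 0.

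Kcnq1 encodes the pore of the slow delayed rectifier current, which is small in adult mouse ventricle. Its signal was 819.8, 862.1 and 753.8 in the Glut1-TG arrays, against 918.8, 773.3 and 941.8 in the WT arrays. The groups overlapped through WT replicate 2, the lowest of its group. Kcnq1 averaged 812 ± 54.6 in Glut1-TG hearts and 878 ± 91.4 in WT hearts (SD, n = 3 each), a log2 difference of -0.11 (SE 0.13).

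The inward rectifier Kcnj11 encodes Kir6.2, the pore of the ATP-sensitive channel. Its signal was 2410, 2802 and 2671 in the Glut1-TG arrays, against 2781, 3006 and 3198 in the WT arrays. The overlap rested on Glut1-TG replicate 2, which was just above WT replicate 1. The means were 2628 ± 200 in Glut1-TG hearts and 2995 ± 209 in WT hearts (SD, n = 3 each), a log2 difference of -0.19 (SE 0.10). The second probe set gave 309.2, 375.0 and 415.5 in Glut1-TG arrays, against 362.6, 481.0 and 308.6 in WT arrays, with a difference of -0.05 (SE 0.23), and its array order differed from that of the first.

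Kcnj2 encodes Kir2.1, the main pore of the inward rectifier current that sets the resting voltage. Its only probe set gave 104.7, 11.4 and 20.3 in the Glut1-TG arrays, against 25.6, 99.2 and 9.1 in the WT arrays. In each group 1 array stood far above the other 2, replicate 1 among Glut1-TG hearts and replicate 2 among WT hearts. All 6 values lay under the filter, so Kcnj2 was not tested and no direction is given for it.

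**Figure D3:**
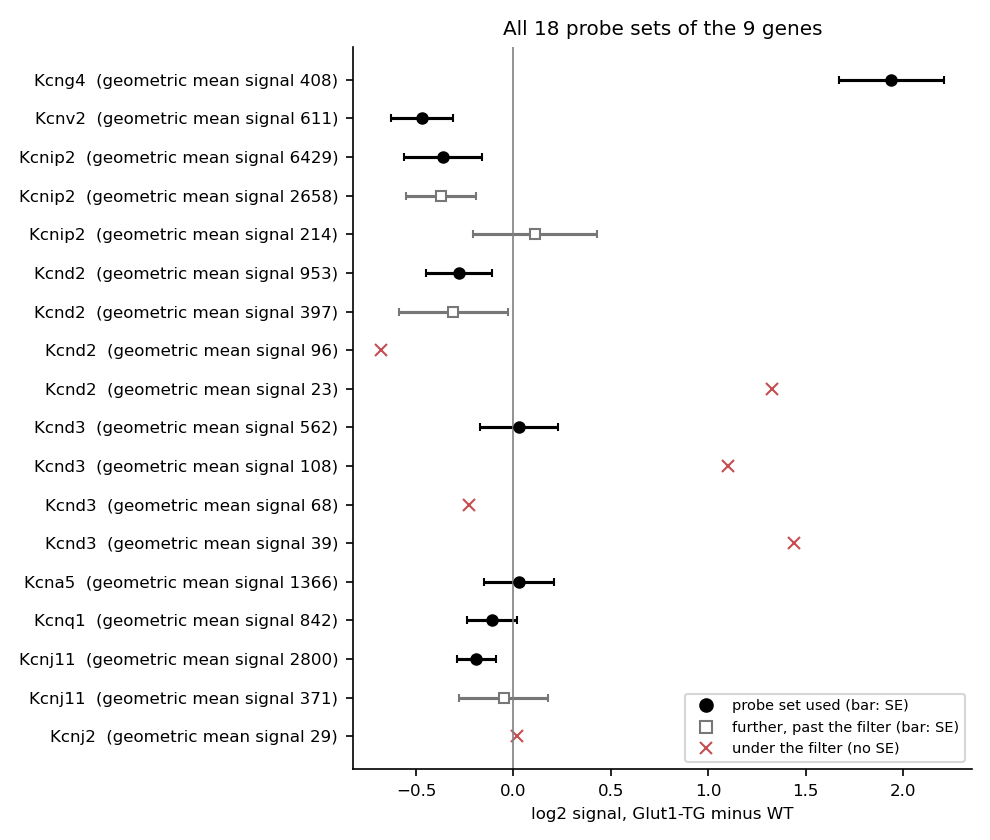
Difference in log2 signal, Glut1-TG minus WT (horizontal axis), for all 18 probe sets of the 9 genes, with the geometric mean signal of the 6 arrays beside each gene name. Filled circles are the probe sets used, open squares are further probe sets past the filter (bars: SE from limma), and crosses are probe sets under the filter. The probe sets used for Kcng4 and Kcnv2 lie at 1.94 and -0.47, the brighter pair of Kcnip2 probe sets at -0.36 and -0.37, and the 6 probe sets under the filter scatter from -0.68 to 1.44.

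The arrays did not rank alike over the measured members. Glut1-TG replicate 2 was the highest of its group for 6 of 8 genes and the lowest for 2, Kcna5 and Kcnip2. Glut1-TG replicate 1 was the lowest for 4 genes, Kcnd2, Kcnd3, Kcnv2 and Kcnj11. Among WT arrays, replicate 2 was the highest for 4 genes and replicate 3 for 3. No array was therefore the low or the high array of its group for all of the members.

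The genes whose log2 signal ran most like Kcng4 over the 6 arrays were Pgd (Pearson's r 0.995, log2 difference 0.56), an enzyme of the pentose phosphate pathway, E230013L22Rik (0.994, 0.82) and Kank1 (0.993, 0.82). Those most like Kcnv2 were Arhgef1 (r 0.982, log2 difference -0.21), Gtf2e1 (0.980, -0.29) and Calr3 (0.980, -0.39). These are the highest coefficients among all genes tested, they share the group difference of the gene they follow, and they are given as a description. The gene Pgd, like Kcng4, had a raised replicate 2 among the WT arrays, with 1548, 1602 and 1452 in Glut1-TG arrays against 995.4, 1121 and 1007 in WT arrays.

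To set the 9 genes beside the rest of the potassium channel repertoire, 2 further lists were compared. The first held other genes of currents known in heart cells, of which 28 of 29 had a probe set used here and 20 were tested. Limma called 0 of the 20 after adjustment, and 0 higher and 1 lower at an unadjusted p under 0.05. Over all genes tested the unadjusted shares were 5.47% higher and 5.81% lower. The methods' t-test called 0 after the same adjustment, but over all 13178 genes it called only 1 higher and 0 lower. The median difference was -0.03, with 9 genes above 0 and 11 below, beside 0.02 over all genes and -0.15 over the members. The gene past the unadjusted threshold was Abcc9, which encodes SUR2, the regulatory subunit that surrounds the Kir6.2 pore in heart muscle. Its signal was 7541, 9037 and 8008 in the Glut1-TG arrays, against 10136, 10014 and 10346 in the WT arrays, without overlap. The log2 difference was -0.31 (95% interval -0.51 to -0.12, limma adjusted p = 0.187), lower in 3 of 3 Glut1-TG arrays, and its other probe sets gave -0.28 and -0.12. Abcc8, the SUR1 subunit, had 686.9, 512.5 and 475.9 in Glut1-TG arrays, against 621.2, 603.7 and 873.2 in WT arrays (log2 difference -0.32, 95% interval -0.77 to 0.13, limma adjusted p = 0.587). Both regulatory subunits and the Kir6.2 pore thus had differences under 0, none past the adjusted threshold. That sign is not particular to them, as all 14 cardiomyocyte markers given below also had differences under 0. With each array centred on those markers, a setting chosen after seeing the data, Abcc9 was at -0.12 and Kcnj11 at 0.00.

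Kcnd1, which encodes the third Kv4 pore, had 361.1, 379.5 and 343.3 in Glut1-TG arrays, against 322.0, 199.5 and 240.7 in WT arrays. The groups did not overlap, but the difference of 0.54 was not called (95% interval -0.01 to 1.08, limma adjusted p = 0.451), and its other probe sets gave -0.07 and 0.36. Kcnk1, a background potassium channel of the tandem-pore family, had 82.3, 276.5 and 19.3 in Glut1-TG arrays, against 146.8, 208.2 and 270.7 in WT arrays. It had the lowest difference of this list, -1.41, with a wide interval (95%, -3.26 to 0.44, limma adjusted p = 0.563) and overlap. Glut1-TG replicates 1 and 3 lay under the filter, and the Kcnk1 probe set passed it through the other arrays. Among genes of the list named after their values were seen, the atrial Kir3 pores Kcnj3 and Kcnj5, which form the acetylcholine-activated channel, had differences of 0.32 and 0.28 (limma adjusted p = 0.688 and 0.61), and Kcnh2, the rapid delayed rectifier pore, had -0.03 (0.983). The other Kcnj3 probe sets gave 0.31 and 0.09 past the filter and -1.42 under it, and the other Kcnj5 probe set gave 0.40.

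The second list held 61 potassium channel genes known mostly from other tissues, of which 48 had a probe set used here and 24 were tested. Limma called 0 of them after adjustment, and 3 higher and 0 lower at an unadjusted p under 0.05. The unadjusted shares over all genes tested were 5.47% higher and 5.81% lower. The methods' t-test with adjustment called 0, beside 1 higher and 0 lower over all genes tested. The median difference was 0.25, with 16 genes above 0 and 8 below. The 3 genes were Kcnh1, an ether-à-go-go channel, Kcnh3, a relative of it, and Kcnmb4, an accessory subunit of the large calcium-activated channel. Kcnh1 had 361.2, 303.4 and 289.6 in Glut1-TG arrays, against 200.3, 178.7 and 191.9 in WT arrays, without overlap. Its log2 difference was 0.74 (95% interval 0.19 to 1.29, limma adjusted p = 0.311), higher in 3 of 3 Glut1-TG arrays, and the other Kcnh1 probe set gave 1.18 with overlap. Kcnmb4 differed by 1.19 (0.07 to 2.30, limma adjusted p = 0.416) and Kcnh3 by 0.50 (0.01 to 0.98, limma adjusted p = 0.432). The Kcnmb4 signal was 294.5, 238.0 and 147.3 in Glut1-TG arrays, against 133.1, 132.0 and 49.9 in WT arrays, so it passed the filter only through the Glut1-TG arrays. For Kcnh3 the Glut1-TG arrays were at 1916, 1004 and 1100, against 897.0, 987.4 and 852.1 in WT arrays, so that replicate 1 alone stood far from the WT range. The other Kcnh3 probe sets gave 0.43 and 0.35 with overlap past the filter, and 0.53 under it. Kcna1 differed by 0.60 with overlap (-0.09 to 1.28, limma adjusted p = 0.51). Its other probe sets, all under the filter, gave -0.67, 0.53 and -0.74, which disagree in sign. Kcng2, a modifier of the same family as Kcng4, was named after its values were seen and had 1957, 2746 and 2258 in Glut1-TG arrays, against 2504, 2855 and 2700 in WT arrays. Its difference of -0.22 (95% interval -0.51 to 0.06, limma adjusted p = 0.547) ran opposite to that of Kcng4 in sign and was not called.

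**Figure D4:**
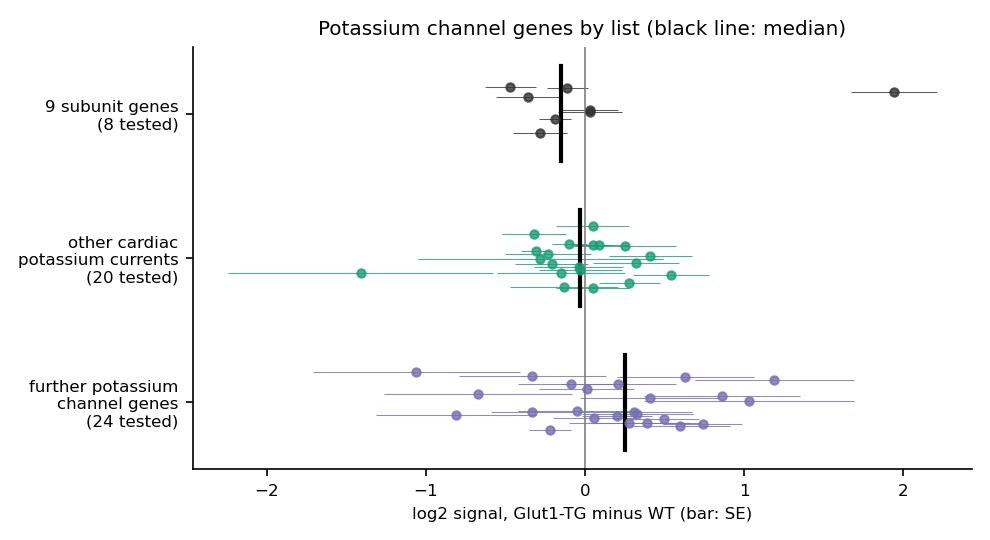
Difference in log2 signal, Glut1-TG minus WT (horizontal axis), of every potassium channel gene tested, for the 9 subunit genes (8 tested), the other genes of cardiac potassium currents (20 tested) and the further potassium channel genes (24 tested). Points are genes, bars are SE from limma, vertical positions within a list are arbitrary, and black lines are medians at -0.15, -0.03 and 0.25; the point at 1.94 is Kcng4.

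Transcription factors known to act on genes of this list in mouse heart were read beside the members. Klf15 had 1510, 1534 and 1488 in the Glut1-TG arrays, against 2096, 2225 and 2106 in the WT arrays, without overlap. The log2 difference was -0.50 (95% interval -0.70 to -0.30, limma adjusted p = 0.0392). That adjusted p lay between 0.0302 and 0.267 in 14 other settings and was under the threshold in 5, being 0.0582 to 0.188 with each array left out in turn. Within the groups Klf15 had an SD of 0.04 on the log2 scale and Kcnip2 one of 0.35. Replicate 2 of each group had the lowest Kcnip2 and the highest Klf15 of its group. The Klf15 arrays of a group lay close together, so nothing is read from their order. Irx5, a repressor of Kcnd2 in mouse heart, had 488.0, 303.7 and 313.2 in Glut1-TG arrays, against 249.0, 377.7 and 228.8 in WT arrays, with overlap (log2 difference 0.37, 95% interval -0.26 to 1.00, limma adjusted p = 0.662).

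Several values moved with the groups beside these results, and their part in the members' differences was not tested. All 14 cardiomyocyte markers had a difference under 0, between -0.30 and -0.07 with a median of -0.18. Limma called 0 of these markers, with 5 lower at an unadjusted p under 0.05, beside 5.81% of all genes tested. Their summed signal was 492332 to 523345 in Glut1-TG arrays and 528749 to 633424 in WT arrays, and none was at 0. With each array centred on these markers, a setting chosen after seeing the data that moves the median of all genes to 0.21, Kcng4 was at 2.13, Kcnv2 at -0.28, Kcnip2 at -0.17, Kcnd2 at -0.09, Kcnj11 at 0.00 and Kcnq1 at 0.08, with Kcnd3 and Kcna5 both at 0.22. On the deposited scale the negative differences of the tested members ran from -0.47 (Kcnv2) to -0.11 (Kcnq1), with SEs of 0.10 to 0.20. Those of the cardiomyocyte markers ran from -0.30 to -0.07, and the members were not tested against them.

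Of 6 atrial markers 2 were called higher, beside 0.258% of all genes tested. Myl4, an atrial myosin light chain, had 1036, 1697 and 1038 in Glut1-TG arrays, against 400.2, 277.8 and 429.7 in WT arrays (log2 difference 1.75, limma adjusted p = 0.00852, and 0.00203 to 0.145 in 14 other settings). The lowest of these came from centring on cardiomyocyte markers, chosen after seeing the data. With the mean of its probe sets Myl4 differed by 1.09 (limma adjusted p = 0.104). Myl7, the regulatory light chain of the atrium, had 377.7, 712.8 and 314.9 in Glut1-TG arrays, against 26.5, 90.5 and 14.2 in WT arrays (log2 difference 3.76, limma adjusted p = 0.0413). Myl7 passed the filter only through the Glut1-TG arrays. It was called in 6 of 14 other settings. Its adjusted p was 0.137 without WT replicate 1, 0.0911 without WT replicate 3, 0.0569 with the mean of probe sets and 0.219 without the intensity trend, and it fell under the filter without any 1 Glut1-TG array and under the strict filter. The other atrial markers did not move alike, as Nppa differed by -0.07 and Sln by -1.13 under the filter, and the summed atrial signal was 7260 to 10887 in Glut1-TG arrays and 6982 to 8242 in WT arrays.

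Of 9 neuronal markers 5 were tested, all with differences above 0 (median 0.52). Limma called 0 of the 5, with 1 higher at an unadjusted p under 0.05, beside 5.47% of all genes tested. The other 4 lay under the filter, among them Tubb3, with 125.0, 79.2 and 88.0 in Glut1-TG arrays and 48.6, 65.4 and 38.8 in WT arrays. Their summed signal was 1487 to 2110 in Glut1-TG arrays and 1081 to 1486 in WT arrays, and none was at 0. Of the 6 conduction system markers 3 had a probe set used here and 2 of these lay under the filter, with sums of 280 to 595 in Glut1-TG arrays and 209 to 608 in WT arrays. The marker tested, Cntn2, differed by 1.11 with overlap (95% interval -0.46 to 2.68, limma adjusted p = 0.595). The sums of skeletal muscle, smooth muscle, endothelial, fibroblast and macrophage markers overlapped between the groups, and limma called 0 of these genes. Their defining genes Myh11, Pecam1, Col1a1 and Cd68 differed by -0.20, 0.00, 0.11 and 0.11, and Myh1 lay under the filter, while Myh6 of the cardiomyocyte list differed by -0.12.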

How the data were processed

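Total RNA from left ventricles of 3 Glut1-TG and 3 WT mice was labelled as biotinylated cRNA and hybridised to an Affymetrix mouse array, 1 per heart. The authors deposited 1 linear intensity per probe set and array, made with GCOS, whose version is not given in the sources used here. The table holds no detection calls. After trimming 2% at each end its mean was 500 in every array, so no further scaling was applied. Of 45101 probe sets, 64 controls were left out. Values under 1, 48 in all, were set to 1 before log2. Gene symbols came from the platform annotation: 34945 probe sets that carried exactly 1 symbol were used, while 932 carried more than 1 and 9160 no symbol. Entrez identifiers of 34741 were found in the RefSeq gene table (GRCm38.p6), with 0 symbols to update.

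For each gene the probe set of highest mean log2 signal was used, probe sets in the lowest 40% of mean signal were dropped, and 13178 genes were fitted in R 4.3.3 with limma 3.58.1 (lmFit, eBayes with an intensity trend, no covariates), with Benjamini-Hochberg adjustment and a threshold of 0.05. What is called the methods' t-test here is unpaired, with equal variance, on log2 signal. The paper's methods name no test for the arrays and give unpaired t-tests for other data. Equal variance and the log2 scale were chosen here, while the paper says it did not assume similar variance. Scripts were tested on simulated data. Figures were drawn with matplotlib 3.10.9 in Python 3.11.15.

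The 9 genes, the potassium channel lists, the markers and the tests were chosen with earlier results of these data known, and the lists were written from general knowledge. The text names all 9 genes with each of their probe sets, the 4 genes of smallest p from each other potassium channel list and any past the threshold, Klf15, Irx5, Slc2a1, the defining gene and any called gene of each marker list, and the 3 genes most like the members of largest rise and fall. Other genes (Kcnj3, Kcnj5, Kcnh2, Kcng2, Nppa, Sln, Cntn2) were named after their values were seen. Genes of the lists that had no probe set used here were not analysed. Alternatives were quantile normalization, an offset of 50, no filter, a filter on the lowest 60%, the mean of a gene's probe sets, eBayes without trend, the replicate number as a block, both other sets of calls, and each array left out. Raw scans were not used here.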

Additional observations from a re-analysis of the deposited data

How the results depend on the processing

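Of 268 alternative values computed for the members, the potassium channel lists and all genes, 30 moved by at least the within-group SD, or for counts by over 1.5 times. For genes of wide spread that SD is large, as for Kcnj2, not called, whose difference of 0.02 became -0.90 to 0.92 with 1 array left out. The filters, the trend and the block cannot change a gene's difference, and such values are among the 268. Changes of sign were counted only for the called member, Kcng4, whose difference stayed above 0. Some members not called did cross 0 over the 14 other settings. Kcna5 ran from -0.19 to 0.22 and Kcnd3 from -0.15 to 0.59. Kcnq1 ran from -0.20 to 0.08 and Kcnd2 from -0.42 to 0.01. The number of members called higher, 1 in the main fit, was 0 with the methods' t-test after adjustment, 0 without the intensity trend, and 0 to 1 with each array left out, the 0 being without WT replicate 1. The number called lower, 0 in the main fit, was 1 under the thresholds of the study, and that of the further potassium channel genes called higher was then 1. Over all genes, 34 higher and 79 lower in the main fit became 1 and 0 with the methods' t-test after adjustment, 423 and 349 under the thresholds of the study, 9 and 37 with the mean of a gene's probe sets, 2 and 2 without the trend, and 12 to 32 and 30 to 63 with 1 array left out. The cause of these shifts was not tested. With the mean of all probe sets, which takes in those under the filter, Kcnd2 was 0.01 and Kcnd3 0.59. Centring on cardiomyocyte markers, chosen after seeing the data, gave 78 higher and 30 lower among all genes, and log2 differences of 0.08 for Kcnq1, -0.28 for Kcnv2 and 0.00 for Kcnj11. The median over the members was 0.04 then, and -0.19 to -0.10 with 1 array left out. No label says that replicate numbers pair the hearts, and correlations of same-numbered deviations were 0.0804, -0.0335 and 0.0549. With 3 arrays a group, these cannot show whether same-numbered hearts were handled together. With the replicate number as a block 23 genes were called higher and 46 lower, 1 and 0 of them members. With 3 arrays a group and a signal limit near 115, many changes, small ones above all, and the level of Kcnj2 could not be resolved. In 20 simulated data sets with the spread of these genes, 200 genes were changed and all values were drawn independently. There limma found 14.9% of 1.5-fold, 35.6% of 2-fold and 58.7% of 3-fold changes. These shares depend on those settings, and real arrays can share variation that the simulation leaves out.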
